A study of Rattus norvegicus with 16 samples.

Results

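The response to house dust mite was compared between lung and adipose tissue of the same rats, over all 16 of the 16 arrays of the series. The question was which genes changed alike in both tissues, which changed oppositely, and which changed in 1 tissue only. The animals were male Brown Norway rats, a strain that makes strong allergic responses, 7 weeks old at the start. The 5 HDM rats (house dust mite) were sensitized under the skin with 45 µg of mite extract in aluminium hydroxide, once a week for 3 weeks, and then given 120 µg in saline through the nose, 3 times a week for 3 weeks. The 3 control rats received saline in aluminium hydroxide and then saline by the same routes, so both groups carried the adjuvant. Each rat gave 1 lung and 1 adipose sample, taken to be those that share a replicate number in the labels. Each sample was hybridised to a 1-colour Agilent rat array. The labels do not name the fat depot, and the hour of tissue collection is not given in the sources used here.

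Inhaled mite allergen meets the airway epithelium, which calls in leukocytes through chemokines and through adhesion molecules on the vessel wall. Neutrophils and monocytes then travel in blood that also perfuses adipose tissue, and hormones such as glucocorticoids reach both tissues as well. Adipose tissue holds adipocytes together with vessels, macrophages and lymphocytes, and these cells respond to inflammatory mediators and to hormones of the blood.

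All values are log2 signals from which the array's 75th percentile was subtracted, so that 0 is that percentile. A change is the mean of the HDM rats minus the mean of the control rats, and the difference of changes is the lung change minus the adipose change, computed from the within-rat difference. Of 45598 rat probes, 24917 (54.6%) were well above background on at least 4 of the 8 arrays in both tissues and were tested. They carried 11408 gene symbols, and where a symbol had several probes the brightest was used. The 75th percentile signal was 376 to 488 on the lung arrays and 111 to 240 on the adipose arrays, and 62.1 to 68.8% of probes were well above background in lung against 50.5 to 60.3% in adipose tissue. The markers of each tissue were present on all 8 of its arrays (Adipoq, the adipocyte hormone adiponectin, lay between 8.45 and 9.34 in adipose tissue and between -2.01 and 2.29 in lung). Each tissue had a slide of its own, so tissue and slide cannot be told apart, and on both slides HDM rats 1 to 4 filled row 1 while HDM rat 5 shared row 2 with the 3 control rats. In adipose tissue, genes of epididymis and testis had a summed linear signal of 3546 times the 75th percentile in HDM rat 1 and 4288 times in control rat 1, against 0.298 to 28.9 in the other rats. The adipose array of HDM rat 2 had 1224 outlier spots against 355 to 444 on the other adipose arrays.

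The adipose values were more variable than the lung values. The median SD among HDM rats was 0.279 in adipose tissue and 0.197 in lung, and among control rats 0.301 and 0.116. In lung, 335 probes (1.34% of those tested) rose and 269 (1.08%) fell in HDM rats, by limma at an adjusted p under 0.05 and past 1.5-fold. In adipose tissue 4 probes (0.0161%) were called, for S100a9, Fkbp5, LOC102547513 and 1 probe without a gene symbol, each at an adjusted p of 0.0327, and 0 were called there whichever rat was left out. The lung count ranged from 276 without control rat 2 to 704 without HDM rat 4 when rats were left out singly, and was 354 without control rat 1. The shared change was tested on the mean of a rat's lung and adipose values. A call also needed 1.5-fold in the same direction in both tissues. The shared change was called higher for 21 probes (0.0843%) and lower for 28 (0.112%). Of these, 6 were well above background on no adipose control array, and all 6 were called higher. They passed the filter through HDM arrays alone in that tissue, so the size of their adipose rise is uncertain. A probe well above background in control rats alone could not pass the filter. The difference of changes was called for 0 probes (0%) by limma, where the smallest adjusted p was 0.0517. At an unadjusted p under 0.05 the difference passed for 2208 probes (8.86%), and the t-test of the same within-rat differences called 3, while normexp background correction with quantile normalization called 21. The HDM and control rats stood apart in the same direction in both tissues for 182 probes (0.730%). With each array scaled to its median instead, the median adipose change of all probes moved to 0.29, and the shared change was called higher for 22 probes and lower for 12 (64.7% higher, against 42.9%).

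**Figure D1:**
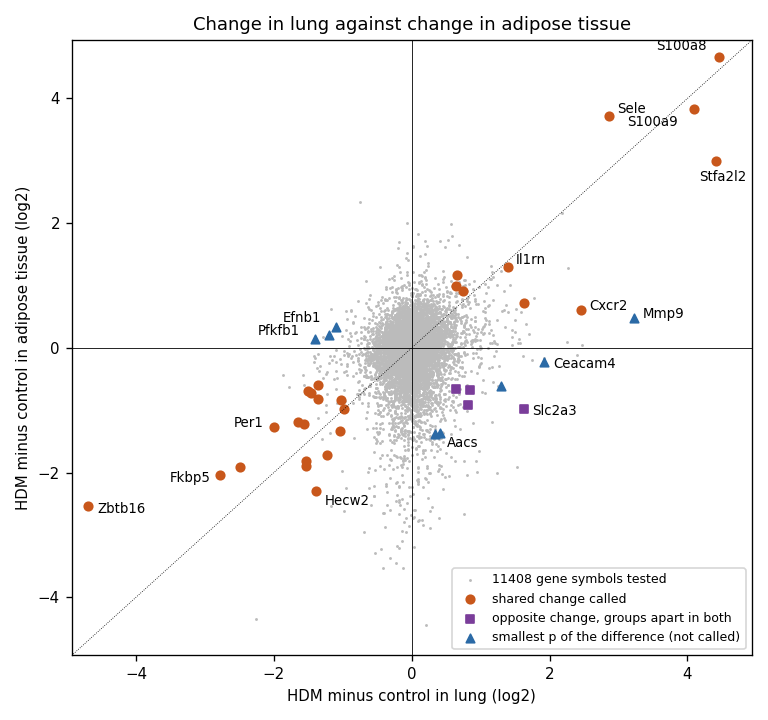
Each point is 1 of 11408 gene symbols, with its HDM minus control change in lung on the horizontal axis and in adipose tissue on the vertical axis, both log2; the dotted line marks equal changes. Orange circles are genes with a called shared change and lie in the upper right and lower left, purple squares are genes past 1.5-fold in opposite directions, and blue triangles are the genes with the smallest p of the difference, none of which was called. Sele and Stfa2l2 are drawn at their measured adipose means, although their control values there were not well above background.

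Genes that were higher in both tissues of the HDM rats were led by the calprotectin subunits, neutrophil proteins, endothelial E-selectin and interleukin-1 genes. Of the 21 probes called higher, 11 had no gene symbol, and those with one belonged to 10 genes. They were S100a8, S100a9, Stfa2l2, Sele, Cxcr2, Il1rn, Il1b, Evi2a, Adamts4 and Jak3. In whole tissue, more cells of a type and more RNA per cell cannot be told apart.

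S100a9, a calprotectin subunit abundant in neutrophils and monocytes, measured 6.68, 6.30, 7.23, 6.35 and 6.21 in the lungs of HDM rats 1 to 5, against 2.48, 2.58 and 2.33 in the control rats. In adipose tissue it measured 1.24, 1.61, 1.98, 0.84 and 0.74, against -2.13, -2.61 and -2.91. The groups stood apart in both tissues, and although the gene was far brighter in lung, its rise was of like size, at 4.09 in lung and 3.83 in adipose tissue (adjusted p of the shared change 0.000421). The difference of the 2 changes was 0.26 with a 95% interval from -0.31 to 0.83. Its partner S100a8 rose by 4.46 and 4.66 (adjusted p of the shared change 0.00193), with a difference of -0.20 (-1.22 to 0.82). That was the only tested probe matched to its symbol by accession. Among the shared probes without such a match, A_44_P674704 had the largest lung rise, and the paper's gene list names it S100a8. It rose by 4.99 in lung and by a mean of 2.94 in adipose tissue, a difference of 2.05 (1.52 to 2.58). In adipose tissue it was well above background on 4 of the 5 HDM arrays and on 0 of the 3 control arrays. The size of its adipose rise and of the difference is therefore uncertain, and no conclusion is drawn from how the S100a8 probes differ.

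Sele encodes E-selectin, which activated endothelium displays to catch passing leukocytes. In lung it measured -1.77, -1.82, -1.71, -1.52 and -1.61 in HDM rats and -4.64, -4.17 and -4.82 in control rats. In adipose tissue it measured -2.16, -1.50, -1.99, -3.59 and -4.17 in HDM rats, and -6.03, -6.31 and -6.87 in control rats, where all 3 arrays had it not well above background. HDM rats 4 and 5 were lowest in adipose tissue yet stayed above every control rat. The lung change was 2.86, the adipose signal was at least 4.06-fold higher, and the adjusted p of the shared change was 0.00351. For such a bound, each control array enters with its own dim signal or with its lowest signal that was well above background, whichever was higher.

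Stfa2l2 encodes a stefin, an inhibitor of cysteine proteases that rodent neutrophils express. It measured 2.08, 1.95, 2.18, 2.15 and 1.71 in the lungs of HDM rats and -2.69, -2.23 and -2.28 in control rats, a rise of 4.42. In adipose tissue HDM rat 2, at -0.02, stood far above the other HDM rats at -4.05, -3.00, -3.79 and -3.00, while the control values of -5.03, -5.95 and -6.33 were not well above background. HDM rats had at least 3.82-fold more adipose signal, and the adjusted p of the shared change was 0.0121. HDM rat 2 was set apart in the same way for Csf3r, the receptor of the granulocyte growth factor, at -0.85 in adipose tissue against -4.22, -3.91, -3.89 and -4.46 in the other HDM rats, and the adipose array of that rat was the one with the most outlier spots. Without HDM rat 2 the adjusted p for this Stfa2l2 probe was 0.000366. Probes without a symbol that the paper's gene list also names Stfa2l2 rose by 3.68 and 3.42 in lung. Their adjusted p of the shared change was 0.000195 and 0.000101, and their adipose control values were not well above background either.

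Interleukin-1 genes were higher on both sides. Il1rn, the natural antagonist of the interleukin-1 receptor, measured 3.20, 2.87, 3.29, 2.80 and 2.68 in HDM lungs against 1.69, 1.46 and 1.59 in control lungs. In adipose tissue it measured -0.88, -0.42, -0.50, -0.37 and -1.27 against -2.11, -1.70 and -2.11, so that the changes were 1.39 and 1.29 (adjusted p 0.0138). The difference of 0.10 had an interval from -0.52 to 0.72. Il1b, the agonist, changed by 1.62 in lung and 0.73 in adipose tissue (adjusted p 0.0452), with a difference of 0.90 (0.17 to 1.63, adjusted p 0.553).

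Cxcr2, the neutrophil receptor for CXC chemokines, met the rule for a shared change (adjusted p 0.0304) although its adipose values overlapped. Its lung values were 0.09, 0.02, 0.20, 0.42 and -0.05 in HDM rats and -2.18, -2.46 and -2.32 in control rats. Its adipose values were -1.005, -0.62, -0.33, -1.09 and -0.74 in HDM rats and -2.57, -0.28 and -1.25 in control rats, and control rat 2 lay above all HDM rats. Jak3, the kinase of the common gamma chain receptors, was higher by 0.64 in lung and 0.99 in adipose tissue (adjusted p 0.0332), with the groups apart in both. Evi2a (0.66 and 1.16, adjusted p 0.048) and Adamts4, a matrix protease (0.75 and 0.91, adjusted p 0.0304), completed the list, and the lung values of Adamts4 overlapped between groups.

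**Figure D2:**
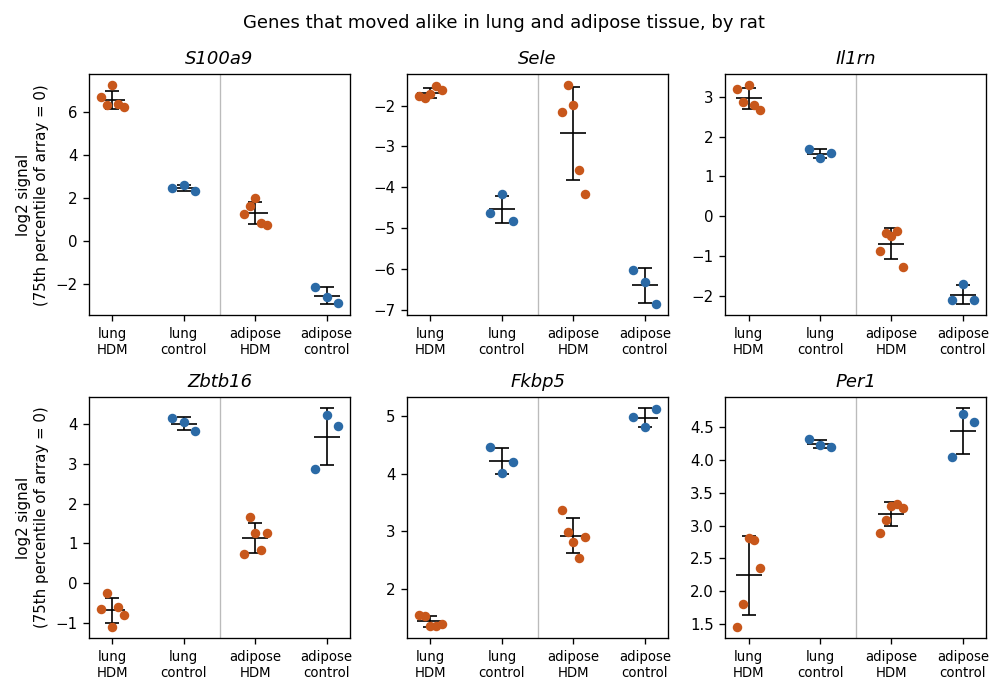
Log2 signal (array's 75th percentile set to 0) of 6 genes with a called shared change in each rat, with 5 HDM rats in orange and 3 control rats in blue, lung on the left and adipose tissue on the right of each panel; the bar is the mean and the whiskers are 1 SD. HDM and control rats are apart in both tissues for all 6 genes, and Zbtb16 fell further in lung than in adipose tissue.

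Genes that were lower in both tissues held several that glucocorticoids are known to induce and a clock gene. Of the 28 probes called lower, some had no gene symbol, and those with one belonged to 19 genes. By the brightest probe of each gene 17 were called lower, and the rest were called on a dimmer probe only. Zbtb16, a zinc finger repressor and a strong glucocorticoid target, fell most. It measured -0.65, -0.26, -1.11, -0.60 and -0.82 in the lungs of HDM rats against 4.15, 4.05 and 3.83 in control rats. Adipose tissue gave 0.73, 1.66, 1.25, 0.82 and 1.26 against 2.87, 4.24 and 3.95. HDM rats were lower than every control rat in both tissues, by 4.70 in lung and 2.54 in adipose tissue on the log2 scale, and the adjusted p of the shared change was 0.000195. The lung fall was larger by a difference of -2.16 (-3.05 to -1.26, adjusted p 0.325). All 3 Zbtb16 probes were called, with differences from -2.49 to -2.16.

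Fkbp5, a co-chaperone of the glucocorticoid receptor whose transcription follows the hormone closely, measured 1.56, 1.54, 1.36, 1.37 and 1.39 in HDM lungs and 4.45, 4.01 and 4.19 in control lungs. Its adipose values were 3.37, 2.99, 2.82, 2.54 and 2.90 in HDM rats and 4.98, 4.80 and 5.12 in control rats. The changes were -2.78 and -2.04 (adjusted p 0.000195), with a difference of -0.73 (-1.16 to -0.31). Tsc22d3, which encodes the glucocorticoid-induced leucine zipper, changed by -1.57 and -1.23 (adjusted p 0.0418). Its lung value was missing for HDM rat 4, which was therefore left out of the difference of -0.28 (-1.15 to 0.59).

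Per1, a repressor of the circadian clock that glucocorticoids also induce, measured 1.45, 1.80, 2.81, 2.79 and 2.36 in HDM lungs against 4.32, 4.22 and 4.19 in control lungs. The adipose values were 2.89, 3.08, 3.29, 3.32 and 3.27 against 4.04, 4.70 and 4.58. The changes were -2.00 and -1.27 (adjusted p 0.0302), and a second Per1 probe, at -1.26 and -1.07, had an adjusted p of 0.271. HDM rats were below control rats in each tissue for the brighter probe.

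Other genes lower in both tissues were Tent5b, a poly(A) polymerase (-2.49 and -1.92, adjusted p 0.0239), LOC102547513 (-1.53 and -1.90, adjusted p 0.00175), Rprml (-1.23 and -1.71, adjusted p 0.00852) and Fam107a, an actin-associated stress-response gene (-1.65 and -1.20, adjusted p 0.00507). Hecw2, a ubiquitin ligase, changed by -1.39 and -2.30 (adjusted p 0.0302) and was well above background in adipose tissue on 1 of the 5 HDM arrays. The matrix gene Ccn2 (-1.51 and -0.69), the fructose transporter Slc2a5 (-1.03 and -1.34), the mitotic kinase Wee1 (-0.76 and -1.02), the Notch target Heyl (-0.98 and -0.99), the sulfated steroid carrier Slc10a6 (-1.37 and -0.83) and Gnat1, Pde10a, Baiap2 and Kif16b were also called lower.

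Over the 49 shared probes, 39 had groups apart in both tissues, 44 were also called in lung alone and 4 in adipose tissue alone. The change was larger in lung for 33, and the difference had an unadjusted p under 0.05 for 16 (32.7%, beside 8.86% of all probes). These probes were chosen by the same lung and adipose values, so neither count carries a test. HDM rats 1 to 4 lay on another slide row than the control rats. With the row as a block, which leaves HDM rat 5 to carry the comparison, 7 shared probes and 59 lung probes were called in place of 49 and 604, and within row 2 there were 0 shared and 10 lung probes. When rats were left out singly, the number of shared probes ranged from 19 to 49. It was 19 without control rat 1 or control rat 3, 21 without HDM rat 2, 28 without HDM rat 4, 30 without HDM rat 5, 31 without HDM rat 3, and 32 without control rat 2. Zbtb16, Fkbp5, S100a8, S100a9, Sele, LOC102547513 and Fam107a were called with any 1 rat left out. Adamts4 was lost whichever rat was left out (adjusted p 0.0526 to 0.139), and Evi2a, Il1b, Jak3 and Tsc22d3 were called with only 1 of the 8 rats left out. Rprml was lost without control rat 1 or control rat 3 (adjusted p up to 0.0583). The Stfa2l2 probe matched by accession was lost without any 1 of the 3 control rats (up to 0.0717). Il1rn was lost without HDM rat 2 or any control rat (up to 0.0801), Per1 and Hecw2 also without HDM rat 5 and Tent5b also without HDM rat 3 (up to 0.139), and Cxcr2 was kept without HDM rat 1 or control rat 2 (otherwise up to 0.139). Without HDM rat 1 and control rat 1, the rats with by far the most signal of epididymis and testis genes in their adipose samples, 18 probes were called.

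The promoter windows of genes in these groups were searched for short motifs because the E-box (CACGTG) is the element bound by the clock activators, and the D-box (TTATGTAA or TTACGTAA) is that of Dbp, Tef and Hlf. RefSeq windows, from 250 bases before to 50 after the start on the GRCr8 assembly, were found for 9329 of the tested symbols, and both strands were read. An E-box lay in 840 windows (9.0%), a D-box in 63 (0.675%) and the cAMP response element (TGACGTCA) in 280 (3.00%), while the full palindromic glucocorticoid response element lay in 0 of them. Of the 17 genes called lower in both tissues by their brightest probe, 14 had a window and 1 of these held an E-box (7.14%). Of the 7 shared higher genes with a window 0 did. The windows of 4 genes that were lower in HDM lungs and held an E-box or D-box are shown, each as the 250 bases before the start, read along the gene's strand, with the motif in capitals. Klf15, a glucocorticoid-induced transcription factor, lies on the plus strand at chr4:124522765-124523014, Per2 on the minus strand at chr9:99496994-99497243, Slc10a6 on the plus strand at chr14:6385325-6385574 and Tef on the plus strand at chr7:115206577-115206826.
Klf15: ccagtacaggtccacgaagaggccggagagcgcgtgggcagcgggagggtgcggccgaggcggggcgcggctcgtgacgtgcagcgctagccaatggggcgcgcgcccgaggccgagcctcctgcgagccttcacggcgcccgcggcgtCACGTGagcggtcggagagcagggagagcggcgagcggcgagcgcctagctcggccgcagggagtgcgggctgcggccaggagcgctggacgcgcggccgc
Per2: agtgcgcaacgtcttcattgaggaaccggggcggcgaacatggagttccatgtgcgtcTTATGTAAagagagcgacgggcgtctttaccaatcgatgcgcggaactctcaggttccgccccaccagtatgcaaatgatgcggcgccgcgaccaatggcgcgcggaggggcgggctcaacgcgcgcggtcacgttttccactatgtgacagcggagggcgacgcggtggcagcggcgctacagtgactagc
Slc10a6: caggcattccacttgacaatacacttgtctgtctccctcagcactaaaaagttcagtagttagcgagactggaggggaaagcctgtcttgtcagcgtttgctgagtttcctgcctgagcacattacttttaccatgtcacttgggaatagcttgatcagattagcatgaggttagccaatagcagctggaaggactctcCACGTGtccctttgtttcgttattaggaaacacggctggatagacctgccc
Tef: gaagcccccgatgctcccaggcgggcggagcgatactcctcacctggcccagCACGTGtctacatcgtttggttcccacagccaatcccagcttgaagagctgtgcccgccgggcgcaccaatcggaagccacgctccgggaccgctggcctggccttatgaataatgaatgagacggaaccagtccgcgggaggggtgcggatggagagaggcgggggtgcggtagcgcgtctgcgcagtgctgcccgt
A match is a description of the window and says nothing of binding in these rats.

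The 17 tested glucocorticoid-induced genes had a median change of -0.86 in lung and -0.44 in adipose tissue (-0.76 without control rat 1), against -0.03 and 0.03 over all 11408 symbols. In lung 8 of the 17 fell and none rose, where 1.21% of all symbols were called lower. The shared change was called lower for 4 (Zbtb16, Fkbp5, Per1 and Tsc22d3), where 0.237% of all symbols had a shared call in either direction. Klf15 measured 1.71, 1.85, 2.04, 2.11 and 1.90 in HDM lungs against 3.46, 3.46 and 3.56 in control lungs. Its adipose values overlapped, at 2.71, 3.57, 3.27, 3.16 and 3.14 against 2.96, 3.95 and 3.89, and the difference was -1.14 (-1.75 to -0.52, adjusted p 0.429). Mt2A, a metallothionein that binds zinc and copper, was lower in lung by 0.49 and higher in adipose tissue by 0.69 without a call in either (difference -1.18, -2.04 to -0.33).

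The clock genes ran in both directions. Of the 9 tested genes driven through E-boxes and D-boxes, 4 fell in lung (Dbp, Per1, Per2 and Tef) and 1 was called for a shared change, where 1.21% of all symbols were called lower in lung and 0.237% for a shared change. The list had medians of -0.63 in lung and -0.23 in adipose tissue. Per2, whose D-box window is printed above, measured -1.25, -1.08, -1.005, -0.81 and -0.54 in HDM lungs against 0.18, 0.51 and 0.60, and -1.68, -1.04, -0.49, -0.55 and -0.26 in HDM adipose tissue against -0.20, 0.60 and 0.59. Its groups were apart in both tissues, yet the shared change had an adjusted p of 0.0972. Dbp, a D-box activator and strong clock output, changed by -1.20 in lung and -0.25 in adipose tissue (difference -0.95, -1.58 to -0.32).

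Of the 5 tested genes of the opposite phase, Bmal1 and Npas2, both partners in the clock activator complexes, were higher in both tissues by their means, and the list's medians were 0.61 in lung and -0.26 in adipose tissue. Bmal1 measured 0.33, 0.16, 0.07, 0.16 and -0.56 in HDM lungs against -0.82, -0.88 and -1.12, and -0.60, -0.77, -0.29, -0.27 and -0.89 in HDM adipose tissue against -1.57, -1.78 and -1.27. The 2 changes were 0.97 and 0.98 and the groups did not overlap in either tissue, but the adjusted p of the shared change was 0.0529. Npas2 changed by 1.11 and 0.97 (adjusted p 0.0934), with the groups apart in both tissues. Cry1, a repressor placed in the same list, was lower in both (-0.80, called in lung, and -0.74), so the list's members did not share a direction.

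The difference of changes was tested for every probe, and the 10 genes with the smallest p are given because none was called. Efnb1, a membrane-bound ephrin ligand, had the smallest p. It measured 0.35, 0.58, 0.41, 0.65 and 0.52 in HDM lungs against 1.75, 1.62 and 1.42 in control lungs, and fell there by 1.09 on the log2 scale. Its adipose signals were 0.37, 0.51, 0.39, 0.48 and 0.34 against 0.23, 0.06 and -0.03. HDM rats were lower in lung and higher, by 0.33, in adipose tissue, and the difference was -1.42 (-1.73 to -1.11, adjusted p 0.0517). Tmem116 had changes of -1.20 and 0.21 and the same adjusted p.

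Ceacam4, a member of the carcinoembryonic antigen family of cell adhesion molecules, measured 1.13, 0.76, 1.38, 0.88 and 0.74 in HDM lungs against -0.80, -0.93 and -1.11. Adipose tissue gave -2.23, -2.46, -2.25, -2.20 and -2.33 against -1.83, -2.44 and -1.95, with overlapping groups. The rise of 1.93 in lung stood beside -0.22 in adipose tissue, a difference of 2.15 (1.66 to 2.64, adjusted p 0.0517). Mmp9, the gelatinase of neutrophil granules, measured -1.16, -1.58, -1.02, -0.85 and -1.66 in HDM lungs against -4.71, -4.33 and -4.41. Its adipose values of -4.02, -4.14, -3.15, -3.57 and -3.75 overlapped the control values of -5.12, -3.89 and -3.62, and the difference was 2.75 (2.04 to 3.46, adjusted p 0.0579). The lung alone separated the groups for both genes.

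Of the other genes with small p, Susd3 rose by 1.29 in lung beside -0.61 in adipose tissue, and Pfkfb1, a regulator of glycolysis, fell by 1.41 in lung beside 0.15. Aacs, which activates acetoacetate for lipid synthesis, was lower in adipose tissue in every HDM rat (1.97, 2.10, 1.72, 1.31 and 1.98 against 3.17, 3.07 and 3.33) and 0.41 higher in lung, neither called. Slc25a18, a mitochondrial glutamate carrier, changed by 0.33 and -1.39 and was well above background in adipose tissue on 1 of the 5 HDM arrays. Adjusted p-values of the difference for these genes were between 0.251 and 0.317.

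**Figure D3:**
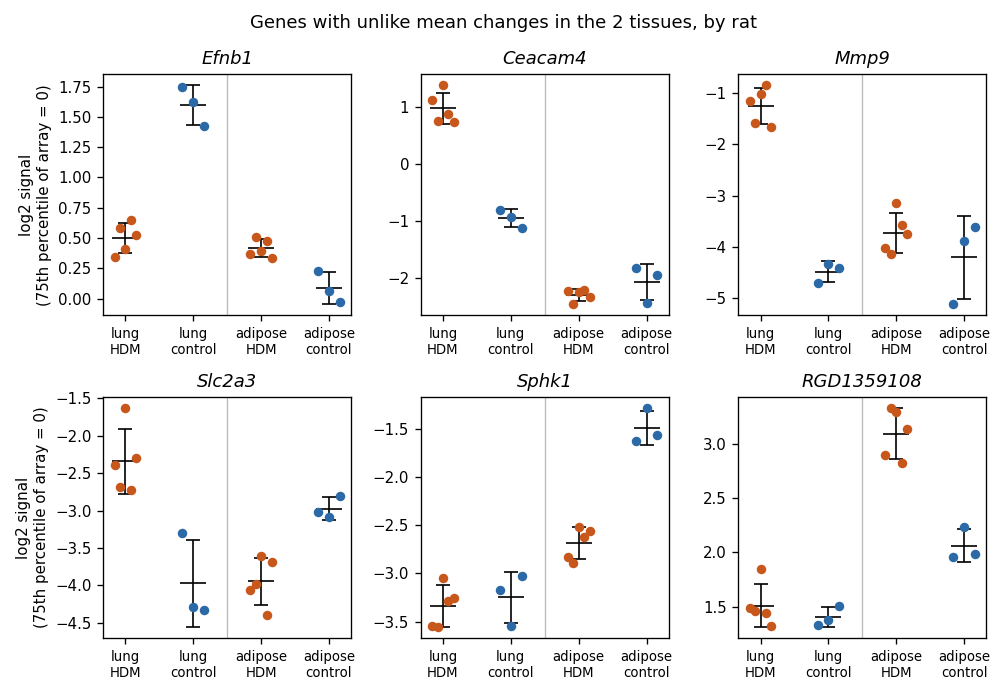
Log2 signal (array's 75th percentile set to 0) of 6 genes in each rat, with 5 HDM rats in orange and 3 control rats in blue, lung on the left and adipose tissue on the right of each panel; the bar is the mean and the whiskers are 1 SD. Efnb1, Ceacam4 and Mmp9 separate the groups by more in lung, Slc2a3 moves in opposite directions, and Sphk1 and RGD1359108 separate the groups in adipose tissue while their lung values overlap.

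Opposite changes were rare. Past 1.5-fold in both tissues, 274 probes had the same direction and 114 opposite directions, and with the HDM rats also apart from the control rats in each tissue the opposite probes were 6 (0.0241%). Of these, 5 were higher in lung and lower in adipose tissue and 1 ran the other way. With each array scaled to its median the numbers were 0 and 5, and 1 of those 5 probes was among the 6. The genes among the 6, by the brightest probe of a symbol, were Slc2a3, Ngfr, Milr1 and Celf5.

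Slc2a3 encodes the glucose transporter GLUT3, which leukocytes use. It measured -2.39, -2.68, -1.63, -2.72 and -2.29 in HDM lungs against -3.30, -4.29 and -4.33, and -4.06, -3.98, -3.61, -4.40 and -3.69 in HDM adipose tissue against -3.03, -3.09 and -2.81. It rose in lung by 1.63 (adjusted p 0.0231) and was 0.97 lower in adipose tissue without a call there (adjusted p 0.402), a difference of 2.60 (1.92 to 3.29, adjusted p 0.0579). Milr1, an inhibitory receptor of mast cells, had changes of 0.85 and -0.68 with a difference of 1.53 (1.15 to 1.90). A second, dimmer Milr1 probe did not run oppositely. It rose by 1.42 in lung (adjusted p 0.00773, called) and was 0.65 higher in adipose tissue, where its groups overlapped. Ngfr, the low-affinity neurotrophin receptor, had 0.82 and -0.92, and Celf5, an RNA-binding protein, 0.64 and -0.65. By the brightest probes of these 4 genes, Slc2a3 and Ngfr were called in lung and none in adipose tissue.

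Genes called in lung moved less in adipose tissue on average. The 335 probes that rose in lung had a median change of 0.82 there and 0.28 in adipose tissue, where 89 passed 1.5-fold in the same direction, 227 lay within it and 19 passed it the other way. The 269 probes that fell had medians of -0.86 and -0.23, with 72, 191 and 6. The difference had an unadjusted p under 0.05 for 129 of the first group (38.5%) and 129 of the second (48.0%), beside 8.86% of all probes. These probes were chosen by their lung values, which also enter the difference. Neither the lower adipose medians nor these shares therefore carry a test.

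A gene was taken as changed in lung only when it was called there, its adipose change was under 0.2 in size and the difference had an unadjusted p under 0.05. Of the 308 symbols called in lung 58 met this, 30 higher and 28 lower. Pglyrp1, a bactericidal peptidoglycan-binding protein of neutrophil granules, led them. Its lung values were 1.85, 1.66, 2.12, 1.67 and 1.28 in HDM rats against -0.54, -0.84 and -0.67. Its adipose values were -2.94, -1.61, -1.87, -1.30 and -2.02 against -2.18, -1.61 and -1.71, so the changes were 2.40 and -0.11. F2rl2, a protease-activated receptor, had 2.25 and 0.09, where the adipose value of HDM rat 1, at 0.23, stood apart from -3.73 to -2.69 in the other HDM rats.

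More leukocyte genes followed in this set. Padi4, which citrullinates histones in neutrophils, measured 1.92, 1.43, 1.96, 1.74 and 1.57 in HDM lungs against 0.36, 0.03 and -0.08, and changed by 1.62 in lung and -0.13 in adipose tissue. Serpinb1a, an inhibitor of neutrophil proteases, changed by 1.46 and 0.04, Steap4, a metal reductase, by 1.46 and 0.18, and Slfn4, a myeloid gene, by 1.23 and -0.05. The lower genes were Pfkfb1 (-1.41 and 0.15), Sema7a, a membrane-anchored semaphorin (-1.40 and -0.17), and Rapgef5, an exchange factor for Rap proteins (-1.36 and -0.10). Serpinb1a lost its lung call without HDM rat 1, control rat 1, control rat 2 or control rat 3 (adjusted p up to 0.1), and Sema7a without HDM rat 1, HDM rat 2, control rat 1 or control rat 2 (up to 0.109).

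A further set passed the filter in lung alone and was not tested for the difference. There were 5201 probes well above background on at least 4 arrays in lung but not in adipose tissue, and 527 the other way, and 1974 of the 5201 were well above background on no adipose array. With the adjustment over all 45598 probes, 61 of the 5201 rose in lung and 25 fell. They carried 31 symbols at their brightest probe, 21 higher and 10 lower, and 16 of these were well above background on no adipose array. Among the 31 were Mmp8, the neutrophil collagenase (3.95), Nlrp12, a NOD-like receptor of myeloid cells (2.77, well above background on 1 adipose array), Csta, a stefin (2.29), Fcar, a receptor for immunoglobulin A (1.83), and Clec4d, a myeloid lectin receptor (1.61), all higher in HDM lungs. These examples were picked after their values were seen.

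Changes in adipose tissue only were described by size, since so few passed a test there. Past 1.5-fold in adipose tissue were 1483 symbols, and 177 of them had a lung change under 0.2 in size and an unadjusted p of the difference under 0.05. Of the 177 genes 47 were higher and 130 lower in HDM rats, and for 83 the groups did not overlap in adipose tissue, beside 5.78% of all 11408 symbols. The 177 were picked by their adipose change, so nothing is read from that count. None of the 10 named here was called in adipose tissue. Sphk1, which makes the lipid mediator sphingosine 1-phosphate, had the smallest adipose p.

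Sphk1 measured -2.83, -2.89, -2.52, -2.62 and -2.56 in HDM adipose tissue against -1.63, -1.29 and -1.56. In lung it measured -3.54, -3.56, -3.05, -3.29 and -3.25 against -3.17, -3.55 and -3.03. Its HDM rats lay below all control rats in adipose tissue and among them in lung, with changes of -1.19 (adjusted p 0.109) and -0.09. RGD1359108 measured 2.89, 3.33, 3.29, 2.82 and 3.14 in HDM adipose tissue against 1.96, 2.24 and 1.99, a change of 1.03 beside 0.11 in lung. The transcription cofactor Zfp608 was 0.79 higher in adipose tissue and 0.11 higher in lung. Lower in adipose tissue were Slc6a20a, an amino acid transporter (-1.76), Stpg4 (-1.27), Galnt14, an enzyme that starts mucin-type glycans (-1.17), the olfactory receptor gene Or2f2 (-0.98), the zinc transporter Slc39a5 (-0.92) and Tpd52l3 (-0.79). Mob4 was at least 1.40-fold higher, its 3 control values not being well above background.

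**Figure D4:**
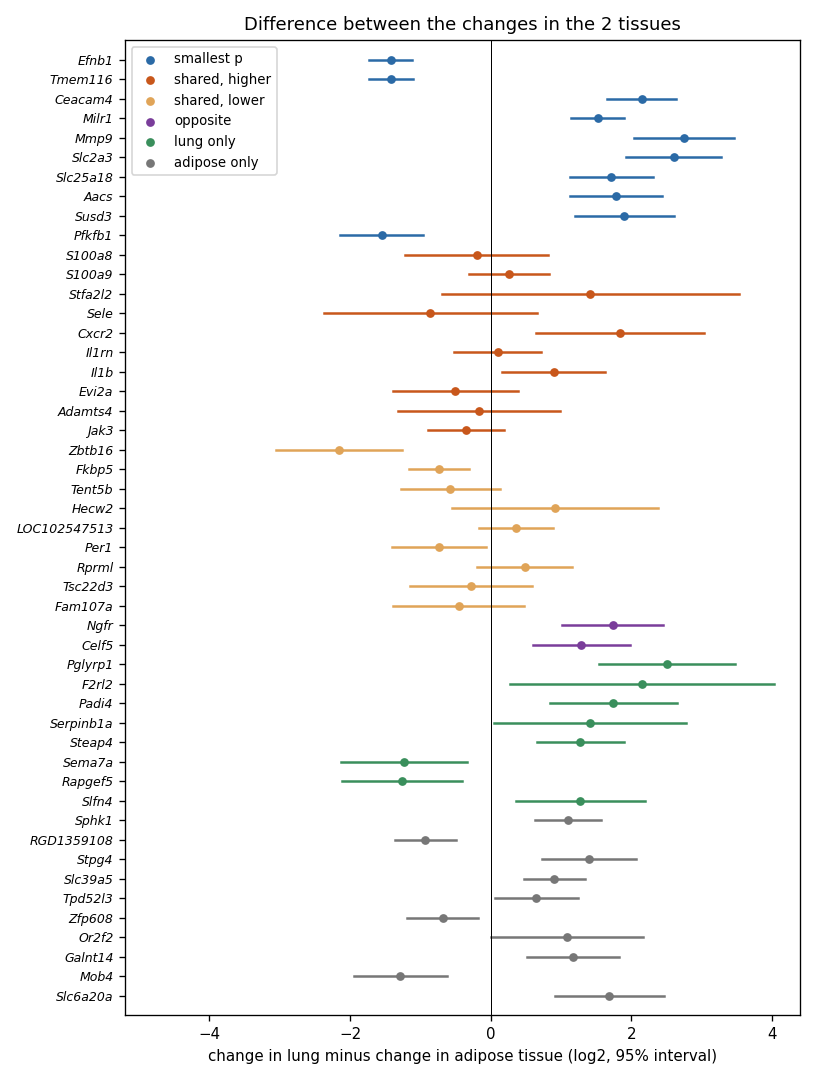
Difference of changes (lung change minus adipose change, log2) with its 95% interval from limma for 49 genes, in the colour of the set that named each. For S100a8, S100a9, Il1rn, Rprml and LOC102547513 the interval spans 0, for Zbtb16 it lies wholly below 0 and for Mmp9 wholly above it, and the genes of 1 tissue and of the smallest p were picked by this difference, so their distance from 0 is no finding.

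Gene lists of immune cells put these genes beside their relatives. Of 15 tested neutrophil genes 10 rose in lung and 1 fell (Fpr1, a formyl peptide receptor, -0.66), where 1.49% of all symbols rose and 1.21% fell. Their median change was 1.26 in lung and 0.57 in adipose tissue. The shared change was called higher for 4, where 0.237% of all symbols had a shared call in either direction. The summed signal of the list, in multiples of the 75th percentile, was 154 to 307 in HDM lungs against 28.7 to 31.9 in control lungs. In adipose tissue it ran from 17.9 to 172 in HDM rats and from 13.1 to 418 in control rats and did not separate the groups. The values of 172 and 418 were those of HDM rat 1 and control rat 1, the rats with the most signal of epididymis and testis genes, where Lcn2, the granule protein lipocalin 2, had log2 signals of 7.33 and 8.69 against 0.84 to 4.08 in the other rats. Without control rat 1 the list's adipose median was 0.15 in place of 0.57, and without HDM rat 1 as well it was 0.37. Camp, the antimicrobial cathelicidin, ran apart between the tissues, with -0.09, 0.25, 0.45, -0.60 and -0.55 in HDM lungs against -1.09, -1.15 and -1.85. Its adipose values were -3.73, -4.32, -3.56, -5.44 and -4.15 against -3.64, -3.27 and -3.99, and the difference was 1.86 (1.13 to 2.60, adjusted p 0.317).

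Among 13 inflammatory cytokine and chemokine genes 5 rose in lung (Ccl7, Il1b, Il1rn, Nlrp3 and Socs3), none fell, and 2 were called for a shared change, where 1.49% of all symbols rose in lung and 0.237% had a shared call. The medians were 0.73 in lung and 0.49 in adipose tissue, and 0.22 in adipose tissue without control rat 1. The monocyte chemokine Ccl7 changed by 1.15 and 1.32, and Ccl2 by 1.17 and 1.13, and the adipose values of both overlapped between groups. Cxcl2, a neutrophil chemokine, ran in opposite directions by its means (1.16 and -1.19), and its values overlapped in each tissue. The 8 tested leukocyte adhesion genes had medians of 0.27 in lung and 0.05 in adipose tissue, and Sele was called as shared. Probes without a symbol that the paper's gene list names Selp were also called as shared. They rose by 2.50 and 2.54 in lung and by 0.99 and 0.94 in adipose tissue (adjusted p of the shared change 0.0138 and 0.00646).

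Of 13 macrophage and monocyte genes 2 rose in lung (Ccr2 and Ptafr), where 1.49% of all symbols rose. The median of the 13 genes was 0.17 in lung and 0.73 in adipose tissue. Control rat 1 had the lowest summed adipose signal of this list (85.5 times the 75th percentile, against 159 and 180 in the other control rats and 112 to 335 in HDM rats), and without that rat the adipose median was 0.43. Cd14, the lipopolysaccharide co-receptor, measured 3.01, 3.65, 3.91, 3.43 and 3.76 in HDM adipose tissue against 1.14, 3.01 and 2.86 in control rats, where control rat 1 was far below the rest. Its changes were 0.18 in lung and 1.21 in adipose tissue, a difference of -1.03 (-2.02 to -0.04).

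Few of the tested eosinophil and type 2 genes were called. Of the genes on the array, 6 of 9 eosinophil and 10 of 15 type 2 genes were tested. The summed lung signal of all those on the array, in the unit of the neutrophil sums, separated the groups. For eosinophil genes it was 32.7 to 45.9 in HDM rats against 18.6 to 27.1 in control rats. For type 2 genes it was 34.9 to 42.3 against 28.6 to 31.2. In adipose tissue the groups overlapped for both lists, and no sum was tested. Over all symbols, 1.49% rose in lung. Of 6 tested eosinophil genes 1 rose in lung, Siglec5, by 0.97 beside a change of 0.71 in adipose tissue (difference 0.26, -1.03 to 1.54). Ccl11, the eosinophil chemokine eotaxin, changed by 0.70 and 0.48, and Prg2, the major basic protein of eosinophil granules, was 1.75 higher in lung (adjusted p 0.0569) beside -0.20 in adipose tissue. Of 9 mast cell genes 1 rose in lung, the histamine-making enzyme Hdc (0.87, beside 0.02 in adipose tissue). None of 10 type 2 response genes (medians 0.22 and -0.08), 4 B cell and plasma cell genes (0.22 and 0.04) or 11 T cell genes (0.07 and -0.28) was called in either tissue. Cd8a, the co-receptor of cytotoxic T cells, was the T cell gene that parted the tissues. It measured -0.68, -0.95, -0.86, -0.74 and -0.60 in HDM lungs against -1.28, -1.22 and -1.41, and -3.85, -5.68, -4.91, -3.70 and -4.16 in HDM adipose tissue against -2.33, -3.32 and -1.58. The difference was 2.59 (1.40 to 3.77, adjusted p 0.348).

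Of 15 tested interferon-stimulated genes 1 was called higher in lung, where 1.49% of all symbols rose. In adipose tissue or for the difference 0 were called, and the medians were 0.24 in lung and -0.17 in adipose tissue. The gene called, Ifit3, measured -0.45, -0.28, -0.07, -0.36 and -0.04 in HDM lungs against -1.41, -1.25 and -1.18. The adipose values were -2.76, -2.43, -1.16, -2.15 and -2.25 against -1.77, -1.40 and -1.75, and the difference was 1.55 (0.88 to 2.21). Oas1a, a sensor of double-stranded RNA, was 0.42 higher in lung and 0.57 lower in adipose tissue with the groups apart in both, and Isg15 had 0.55 and -0.41. Outside this list, a probe without a symbol that the paper's gene list names Ifit1bl was called as shared. It rose by 2.42 in lung and 1.02 in adipose tissue (adjusted p of the shared change 0.00284).

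Several heat shock proteins and chaperones fell in lung. Of 13 tested, 6 fell in lung (Dnaja1, Hsp90ab1, Hspa1a, Hspa5, Hspb1 and Hsph1), where 1.21% of all symbols fell, and the medians were -0.48 in lung and -0.08 in adipose tissue. The difference had an unadjusted p under 0.05 for 8 of the 13, in each with the lower change in lung, where 489 of all 11408 symbols had that. Dnaja1, a partner of the large heat shock proteins, measured 1.75, 1.73, 1.88, 1.73 and 1.67 in HDM lungs against 3.07, 2.91 and 2.98. Its adipose signals were 2.45, 2.09, 2.23, 2.13 and 2.14 against 2.65, 2.51 and 2.64, and the groups were apart in both. The changes were -1.23 and -0.39, a difference of -0.84 (-1.18 to -0.51, adjusted p 0.317). Hspb1 had -0.69 in lung and 0.47 in adipose tissue, where the groups overlapped. In adipose tissue control rat 1, at 3.58, lay below all other rats, HDM and control, at 4.53 to 5.26.

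The remaining lists held 1 lung call in all, Nr4a3 of the immediate early genes, which fell by 1.78. Over all symbols, 1.21% were called lower in lung. Medians of lung and adipose changes were 0.22 and -0.08 for 20 immediate early genes, -0.14 and -0.06 for 14 proliferation genes and -0.02 and 0.02 for 16 cytosolic ribosomal protein genes. They were 0.21 and 0.15 for 16 adipocyte genes, 0.10 and 0.04 for 5 brown fat genes, and -0.24 and -0.18 for 6 lung epithelium genes. Genes of blood and muscle that can enter a dissected sample had -0.01 and 0.70 (6 erythrocyte genes) and 0.05 and -0.21 (7 skeletal muscle genes). Control rat 1 had the lowest summed adipose signal of the erythrocyte list (166, against 421 and 489 in the other control rats and 374 to 640 in HDM rats), and without it the adipose median was 0.20. Without the same rat the adipose medians of the adipocyte and the epididymis and testis lists changed sign, to -0.09 and 0.76. Lists with few tested members were mucous airway (3 genes, 0.08 and -0.64), motile cilia (3 genes, -0.08 and -1.26) and epididymis and testis (4 genes, 0.30 and -2.04).

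**Figure D5:**
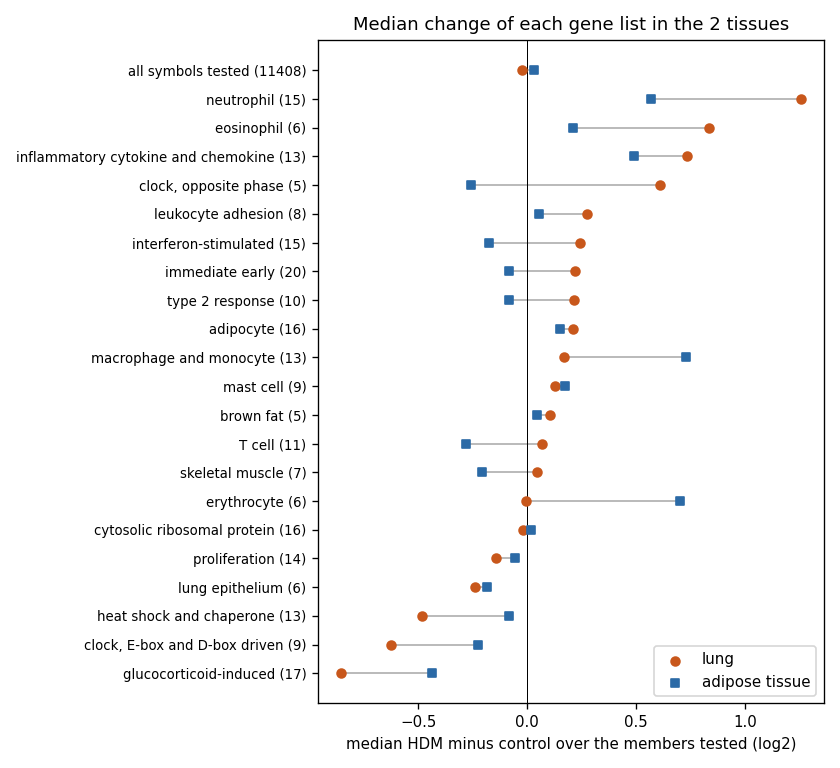
Median HDM minus control change (log2) of the tested members of 21 lists, with their number in brackets, and of all 11408 symbols, in lung (orange circles) and adipose tissue (blue squares); no error is drawn, since the members are not replicates. The neutrophil list lies furthest to the right in lung and the glucocorticoid-induced list furthest to the left, each with its adipose median nearer 0.

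The study singled out some genes and used others as references. Among them Ptafr, the receptor of platelet-activating factor, changed by 0.66 in lung (adjusted p 0.0163) and 0.75 in adipose tissue. The difference was -0.09 (-1.16 to 0.98). Its adipose values overlapped, at 1.42 to 2.98 in HDM rats against 0.98, 2.15 and 2.04 in control rats 1 to 3. The adipose change had an unadjusted limma p of 0.112, and the shared change was not called (adjusted p 0.221). Vav3, a guanine nucleotide exchange factor, rose by 0.61 in lung (adjusted p 0.00895) beside -0.75 in adipose tissue, and the difference was 1.36 (0.33 to 2.38). In adipose tissue Vav3 measured -0.04, -1.07, -0.96, -0.80 and -1.20 in HDM rats against 0.90, -1.18 and 0.09 in control rats, with overlapping groups. Control rat 1, the highest control rat, and HDM rat 1, the highest HDM rat, were those with the most signal of epididymis and testis genes, whose part in the difference was not tested. The difference ran from 0.896 without control rat 1 to 1.92 without control rat 2. The reference gene Gapdh had a difference of 0.18 (-0.24 to 0.59), which turned to -0.17 with each array scaled to its median. Hprt1 had a difference of -0.09, whose sign also depended on the scaling, and the 3 reference genes had median changes of -0.04 and 0.04 and no call.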

How the data were processed

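The authors deposited Agilent Feature Extraction (12.0.3.1) files of 1-colour intensity, with 62976 spots an array, 50 ng of RNA a sample and well-above-background marks per spot, and a table of log2 values per array. Per the labels and methods the values were scaled to the 75th percentile of each array in GeneSpring. The deposited log2 table served as an alternative. There, 39 gene names had been turned into months. Here the deposited intensity (processed signal) was averaged over the spots of a probe, outlier spots left out, put on the log2 scale and set to 0 at the array's 75th percentile. Probes had to be well above background on 4 of 8 arrays in each tissue, and 318 tested probes lacked a value on some array. This dropped 61 probes that were above background on all 3 control arrays of a tissue and on no HDM array of it.

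limma (3.58.1, R 4.3.3) was fitted per probe to the within-rat difference, the within-rat mean and each tissue, HDM against control rats, with Benjamini-Hochberg adjustment over 24917 probes. Calls needed an adjusted p below 0.05 and 1.5-fold. With 5 and 3 rats the exact two-sided permutation test over 56 splits cannot go below 0.0179, so p-values are limma's. The steps were tested on simulated data. Lung and adipose arrays were paired by the replicate number in the labels, taken as the rat number. The paper describes the lung and adipose data as matched within the HDM-exposed animals. After removing group means, the correlation between a rat's 2 arrays ran from -0.09 to 0.07. Symbols came from RefSeq by accession (14336 of the tested probes), and 3 of 352 list entries had no current symbol. Named genes followed a fixed rule: the 10 smallest p of the difference, up to 10 shared genes a direction, opposite genes, 10 genes for each tissue alone, list members and the genes the study named. Of these genes 2 are not reported here. The members and lists were chosen with earlier results of these data known. The number of arrays limits the precision. Alternatives covered filter, scaling, background correction, test, blocks, thresholds and left-out rats.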

Additional observations from a re-analysis of the deposited data

Results flagged for a closer look

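In 114 groups of the 5 HDM rats, 10 had an HDM rat whose gap to the next was over 0.71 of the group's range (8.77%, where chance gives about 1 in 20, or 5%). In lung, the log2 signal of Adamts4 was -4.48 in HDM rat 3 (others -3.57 to -3.44), LOC102547513 was -1.95 in HDM rat 5 (others -1.49 to -1.30), Rprml was 1.66 in HDM rat 1 (others 2.18 to 2.31) and Steap4 was 2.14 in HDM rat 3 (others 1.85 to 1.90). In adipose tissue, F2rl2 was 0.235 in HDM rat 1 (others -3.73 to -2.69), Steap4 was 3.63 in HDM rat 1 (others 4.45 to 4.76) and Tsc22d3 was 3.12 in HDM rat 1 (others 3.78 to 4.01). HDM rat 1 was also the HDM rat with the most signal of epididymis and testis genes in its adipose sample, and their part in these values was not tested. Stfa2l2 was -0.0245 in adipose tissue of HDM rat 2 (others -4.05 to -3.00), the array with 1224 outlier spots (others 356 to 444). Zfp608 was -1.19 in adipose tissue of HDM rat 3 (others -1.66 to -1.63).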

How the results depend on the processing

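Counts of probes called are given here for the difference of changes (0), shared change (49), lung change (604), adipose change (4) and opposite change (6), and the cause of a move was not tested. Without the filter on dim probes the counts were 1, 23, 390, 0 and 22. With probes well above background on all 16 arrays the difference counted 3 and opposite change 2, and with every array of a group the difference counted 3. Quantile normalization gave 3 opposite probes, the 75th percentile over probes present on all 16 arrays gave 7 for the difference, and scaling to Gapdh and Hprt1 gave 0 for adipose tissue. Normexp with quantile normalization gave 21 for the difference, 2 for adipose tissue and 0 opposite. The methods' t-test gave 3 for the difference, 9 shared, 402 in lung and 0 in adipose tissue, and limma's test against 1.5-fold gave 15 shared, 56 in lung and 0 in adipose tissue. A joint fit with the rat as a random block, where the correlation within a rat was 0.0332, gave 14, 93, 210 and 75 for difference, shared, lung and adipose, the joint fit with no replicate block 10, 100, 212 and 75, and array weights 8, 92, 986 and 15.

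HDM and control rats share only a replicate number: with that number as a replicate block, 12 shared, 203 lung and 0 adipose probes were called, and the correlations between same-numbered rats were -0.08, -0.08 and 0.02 for lung, and for adipose tissue 0.73, 0.26 and 0.02. With the slide row as a block 7 shared, 59 lung and 0 adipose probes were called. Within row 2, with HDM rat 5 alone against the control rats and assumed to vary like them, the counts were 0 shared, 10 lung, 0 adipose and 185 opposite. A 2-fold threshold gave 27 shared, 202 lung and 0 opposite, no threshold 79, 915 and 53, and adjustment over probes past 1.5-fold 13, 234, 970 and 37 for difference, shared, lung and adipose. With 1 probe per symbol the difference counted 6, shared 29 and lung 353.

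With each rat left out, the difference of changes counted 0 to 0, the shared change 19 to 49, the lung change 276 to 704, the adipose change 0 to 0 and the opposite change 5 to 25. The lung count fell to 276 without control rat 2 and 354 without control rat 1. Without HDM rat 1 and control rat 1 there were 18 shared, 138 lung, 0 adipose and 22 opposite probes. Without HDM rat 2 as well, chosen after seeing the data, there were 13, 47, 0 and 32. The list medians without control rat 1, or without HDM rat 1 as well, were also chosen after seeing the data. The Gapdh difference of 0.18 turned to -0.17 with array medians. The Hprt1 difference of -0.09 turned to 0.00457 with quantile normalization, 0.0155 with the 75th percentile over probes on all 16 arrays, 0.0258 with normexp, 0.59 in the deposited table, 0.229 with the replicate block, and with single rats left out ran from -0.235 to 0.0286, above 0 without HDM rat 4 (0.0286) or HDM rat 5 (0.00389). Over the named genes, 1473 values kept direction and side of the threshold, 269 lost a call, 75 gained one and 8 turned.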
